A study of Mus musculus with 6 samples.

Results

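Meox1, Meox2 and 8 genes of activated fibroblasts (Postn, Cthrc1, Fap, Thbs1, Thbs4, Ltbp2, Cilp and Comp) were followed through a series on diabetes in pregnancy and the hearts of the offspring. They were taken by gene symbol from a table of 54532 genes, in which each of the 10 symbols had 1 row. RNA of hearts whose titles give 4d, read here as day 4, was sequenced in 6 libraries. The STZ hearts (n = 3) came from offspring of mothers given STZ, read here as streptozotocin, by injection into the abdomen in pregnancy, and the control hearts (n = 3) from offspring of mothers given citric acid by the same route. All animals were labelled wild type and ICR, an outbred stock, so hearts of a group differ in genotype as well. Separate litters within a group, and pooling of hearts, are not stated in the labels, so p-values measure the spread between these 6 samples.

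MEOX1 and MEOX2 are homeodomain transcription factors of the mesoderm, needed in the mouse embryo for the somites and the limb muscles. In the adult mouse heart under pressure overload, Meox1 is switched on in fibroblasts downstream of TGF-beta, while Meox2 acts with Tcf15 in the endothelium of heart capillaries. An activated fibroblast lays down collagen together with matricellular proteins such as periostin (Postn) and the thrombospondins, which tie matrix, growth factors and cell surface together. The series title names MEOX1 as a pro-fibrotic factor, and the comparison asks whether Meox1 and the genes of this programme differed in hearts of STZ offspring.

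The libraries held between 16707268 (STZ 2) and 18082599 (STZ 3) recovered reads. Values are FPKM, that is per kilobase of gene and per a scale set by the authors for each library. This scale was 0.985 to 1.03 times the recovered reads in 5 libraries and 1.21 times in control 2. Control 2 also stood apart in its transcripts. The summed level of 5 atrial genes (Myl7, Myl4, Sln, Nppa and Bmp10) was 116, 32.7 and 70.9 FPKM in STZ 1, 2 and 3, against 37.8, 6102 and 43.8 FPKM in controls 1, 2 and 3. Genes of other tissues were high there too: 5 thymus genes summed to 67.2 FPKM in control 2 and to 1.52 FPKM or less elsewhere, and Ucp1, which defines brown fat, was at 213 FPKM in control 2 and listed at 0 in the other 5. Resident fibroblast markers (10 genes) summed to 616 FPKM in control 2 and 298 to 343 FPKM elsewhere. These markers did not rise alike: control 2 was at 0.901 (Pdgfra) to 7.41 times (Mfap4) the median of the other libraries. Mfap4 alone was at 192 FPKM in control 2 and at 20.4 to 30.7 FPKM elsewhere. Fibrillar collagens (6 genes) summed to 1261 FPKM in control 2 and 595 to 728 FPKM elsewhere. Cardiomyocyte markers (8 genes) were low there, at 3255 FPKM and 5415 to 6035 FPKM elsewhere. The sum of endothelial markers (6 genes) was low too, at 189 and 259 to 316 FPKM, but the single genes differed. Kdr and Cdh5 were at 0.341 and 0.436 times the median of the other libraries and Tie1 at 0.775 times. Pecam1, Tek and Egfl7 lay within the range of the other libraries. The part of these transcripts in the results was not tested, so differences and relations with Meox1 of the 10 genes are given with and without control 2. In whole hearts, fewer cells of a type and less RNA per cell cannot be told apart.

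**Figure D1:**
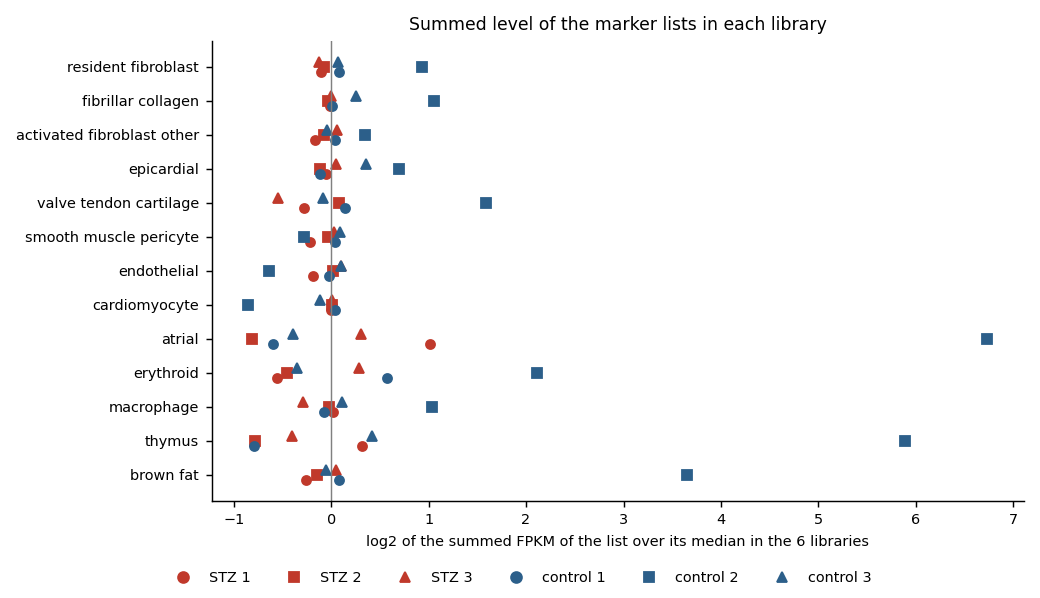
Summed FPKM of each marker list in each library, as the log2 ratio to the median of the 6 libraries (x axis), for STZ (red) and control (blue) hearts. Control 2 (blue squares) lies apart on most lists, at 6102 FPKM of atrial genes, while the other 5 libraries stay between 32.7 and 116 FPKM.

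Postn was by far the most abundant of the 10 genes, with 84.7, 115 and 112 FPKM in STZ hearts and 119, 190 and 119.5 FPKM in control hearts. The order of the medians over the 6 libraries was then Meox2 (12.5 FPKM), Meox1 (12.3), Thbs1 (7.98), Thbs4 (5.94), Cthrc1 (4.08), Fap (1.93), Ltbp2 (0.534), Comp (0.301) and Cilp (0.174 FPKM). The range of Postn did not overlap that of Meox2. Every other pair of neighbours in this order overlapped: Meox2 was above Meox1 in 2 of 6 libraries and Thbs4 above Cthrc1 in 3 of 6, whereas Meox1 was above Thbs1, and Cthrc1 above Fap, in all 6. Of the 10 genes, 7 reached 1 FPKM in at least 3 libraries and were tested. Ltbp2, Comp and Cilp were under that limit, and for them only values are given. All 10 positions matched GENCODE M21. No exon of another annotated gene overlaps those of 8 of the genes, while Thbs1 shares exon bases with Gm29233 and Ltbp2 with D030025P21Rik, both on the opposite strand, and with no strand setting stated their reads cannot be told apart. Tagln, a smooth muscle gene whose annotated span overlaps that of Pcsk7 on the opposite strand, was listed at only 0.141 to 0.494 FPKM in these hearts. How reads on overlapping genes were counted is not stated, and its part in the levels of Thbs1 and Ltbp2 was not tested.

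**Figure D2:**
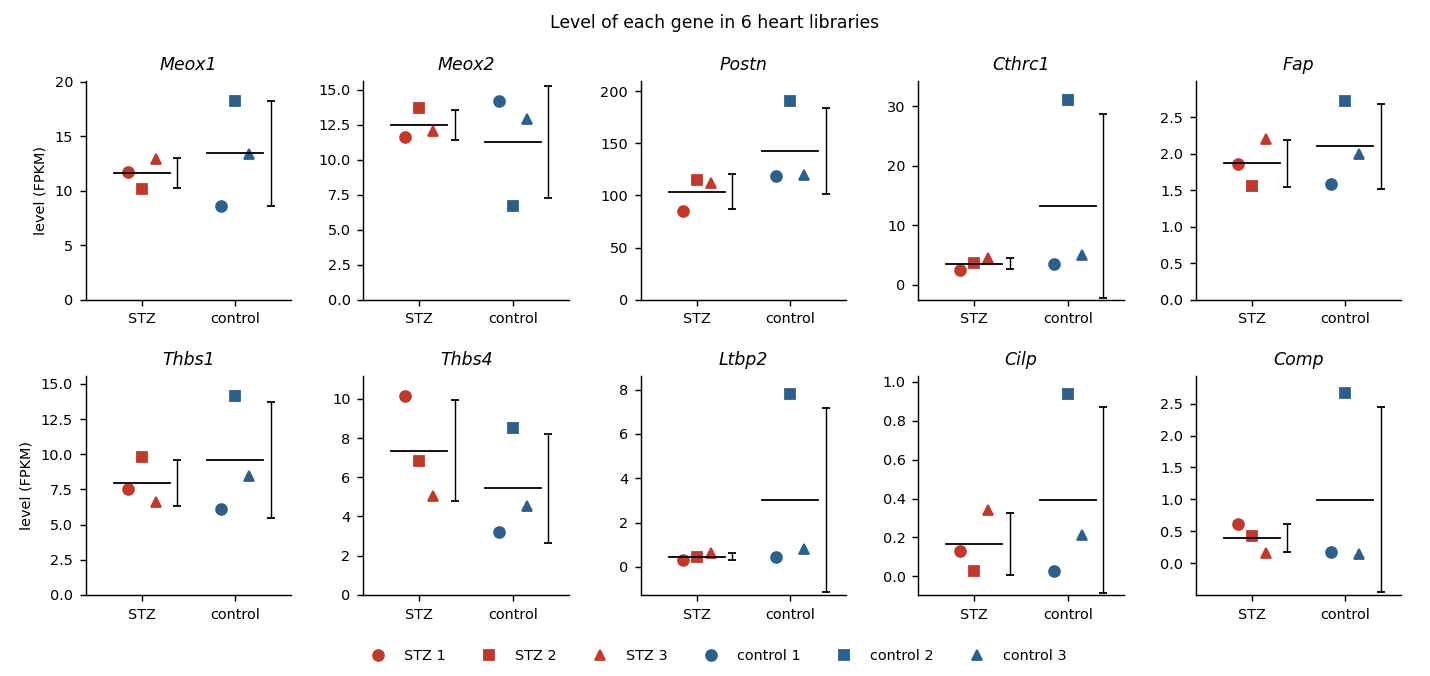
Level in FPKM (y axis) of each gene in STZ hearts (red, left) and control hearts (blue, right); points are libraries, horizontal lines group means and bars 1 SD (n = 3 each). Control 2 (blue square) is the highest library for 8 of the 10 genes and the lowest for Meox2, and Postn alone has all STZ points (at most 115 FPKM) below all control points (at least 119 FPKM). Over all genes tested, control 2 is the highest library for 27.4% and the lowest for 41.7%.

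Promoter windows of 300 bases (250 before and 50 after the start site; RefSeq, GRCm38.p6) were matched for Meox2, Postn, Thbs4, Ltbp2 and Cilp. Windows of Meox1, Cthrc1, Fap, Thbs1 and Comp were not used here. They were searched on both strands for the homeodomain core bound by MEOX proteins (TAATTA), AP-1 (TGANTCA), TEAD (GGAATG), the SMAD element (CAGAC) and the TATA box (TATAAA). No window of these 5 genes held TAATTA or TGANTCA, which occur in 5.29% and 7.81% of all 32851 windows. Shown, with matches in capitals, are the most abundant gene (Postn, chr3:54360857-54361156, plus strand), the gene that stood highest in control 2 relative to the other libraries (Ltbp2, chr12:84876442-84876741, minus strand), the gene with its highest value in an STZ heart (Thbs4, chr13:92794769-92795068, minus strand) and a low gene that followed Meox1 closely (Cilp, chr9:65264930-65265229, plus strand).
Postn: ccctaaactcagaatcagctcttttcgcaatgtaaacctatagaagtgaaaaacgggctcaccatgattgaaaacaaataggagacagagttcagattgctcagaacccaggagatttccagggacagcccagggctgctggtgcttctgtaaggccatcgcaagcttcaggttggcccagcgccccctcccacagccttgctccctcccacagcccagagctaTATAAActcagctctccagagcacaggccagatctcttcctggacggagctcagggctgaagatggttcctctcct
Ltbp2: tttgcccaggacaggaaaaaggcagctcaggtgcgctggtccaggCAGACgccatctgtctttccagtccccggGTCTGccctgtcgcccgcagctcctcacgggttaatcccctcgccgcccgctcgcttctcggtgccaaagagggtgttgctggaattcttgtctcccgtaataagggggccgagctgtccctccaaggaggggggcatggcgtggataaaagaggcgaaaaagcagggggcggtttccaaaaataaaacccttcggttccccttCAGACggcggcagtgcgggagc
Thbs4: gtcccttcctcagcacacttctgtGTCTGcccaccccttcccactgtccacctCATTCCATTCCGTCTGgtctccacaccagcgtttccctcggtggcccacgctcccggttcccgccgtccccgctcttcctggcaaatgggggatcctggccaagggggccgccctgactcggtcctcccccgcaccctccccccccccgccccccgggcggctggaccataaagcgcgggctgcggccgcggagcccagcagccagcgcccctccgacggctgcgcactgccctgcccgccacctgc
Cilp: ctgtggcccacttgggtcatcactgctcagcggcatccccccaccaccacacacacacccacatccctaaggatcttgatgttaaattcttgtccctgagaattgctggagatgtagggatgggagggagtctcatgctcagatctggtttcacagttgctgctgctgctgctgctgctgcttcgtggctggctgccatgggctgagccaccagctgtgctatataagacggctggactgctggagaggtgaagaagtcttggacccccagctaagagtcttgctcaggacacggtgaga
The Postn window had a TATA box that began 26 bases before the start site, a motif found in 13.6% of all windows; the Meox2 window (chr12:37108290-37108589) had one on the reverse strand, 29 bases before it. A second Postn window upstream (chr3:54359017-54359316) held the SMAD element once. The Ltbp2 window held the SMAD element at 3 places. The Thbs4 window held it at 2 places and the TEAD motif at 2 places that share 1 base, and the Cilp window held no exact match to any of the 5 motifs. Only exact letters were counted, so near forms of the TATA box, such as tatataag in the Cilp window, were passed over. The SMAD element is short and lies in 49.6% of all windows, and TEAD in 14.7%, so these are descriptions of the letters only.

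Meox1 (ENSMUSG00000001493, chromosome 11, 101877510 to 101894374, minus strand) was at 11.7, 10.2 and 12.9 FPKM in STZ 1, 2 and 3, against 8.64, 18.2 and 13.4 FPKM in controls 1, 2 and 3. The lowest and the highest library were both controls, and all STZ values lay between them. The difference on log2(FPKM + 1), STZ over control, was -0.14 (95% interval -0.73 to 0.44; limma, adjusted p = 0.930), and it was 0.09 (-0.36 to 0.54) without control 2. Meox1 rested on 324 to 868 reads a library, so counting error is small beside the spread of the controls.

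Meox2 (ENSMUSG00000036144, chromosome 12, 37108540 to 37179534, plus strand) was at 11.6, 13.7 and 12.1 FPKM in STZ 1, 2 and 3, against 14.2, 6.72 and 12.9 FPKM in controls 1, 2 and 3. Outside control 2 the other 5 libraries lay within 11.6 to 14.2 FPKM. In control 2 Meox2 was at 0.521 times the median of the other libraries, where Meox1 was at 1.56 times, so the paralogues went opposite ways in that library. The log2 fold change of Meox2 was 0.19 (95% interval -0.41 to 0.80; limma, adjusted p = 0.922) and -0.11 (-0.35 to 0.13) without control 2.

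Fap (ENSMUSG00000000392, chromosome 2, 62500943 to 62574075, minus strand) encodes a serine protease on the surface of activated fibroblasts. It was at 1.87, 1.56 and 2.20 FPKM in STZ hearts, against 1.58, 2.72 and 1.996 FPKM in control hearts. The groups overlapped, with a log2 fold change of -0.10 (SE 0.169; limma, adjusted p = 0.930), and 0.04 without control 2. These levels come from 148 to 330 reads. Poisson intervals (95%, counting error only) ran from 1.32 to 1.83 FPKM in STZ 2, from 1.92 to 2.50 FPKM in STZ 3 and from 1.34 to 1.86 FPKM in control 1, so that STZ 3 lay above both by more than counting error.

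Postn (ENSMUSG00000027750, chromosome 3, 54361109 to 54391037, plus strand) encodes periostin, which binds collagen and integrins and marks activated heart fibroblasts. It averaged 104 ± 16.6 FPKM in STZ hearts and 143 ± 41.2 FPKM in control hearts (SD, n = 3 each). All 3 STZ values were below all 3 control values, in each of the 3 scalings tried (as deposited, median-of-ratios and recovered read totals). Of all 12431 genes tested, 3.62% had this order, and Postn was the only one of the 7 tested genes here that did. The gap was narrow: 115 FPKM in STZ 2 against 119 FPKM in control 1. An exact two-sided permutation test gave p = 0.1, the smallest that 3 against 3 samples allow, and limma gave a log2 fold change of -0.44 (95% interval -0.98 to 0.11; adjusted p = 0.922), or -0.21 (-0.56 to 0.14) without control 2.

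Cthrc1 (ENSMUSG00000054196, chromosome 15, 39076932 to 39087121, plus strand) encodes a secreted glycoprotein of activated fibroblasts. It was at 2.54, 3.66 and 4.50 FPKM in STZ hearts, against 3.58, 31.1 and 4.98 FPKM in control hearts. Control 2 alone was 6.24 times the next library and 8.49 times the median of the others. The log2 fold change of -1.09 (95% interval -2.74 to 0.55; limma, adjusted p = 0.922) was -0.22 (-0.73 to 0.29) without that library.

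Ltbp2 (ENSMUSG00000002020, chromosome 12, 84783212 to 84876532, minus strand) encodes a matrix protein related to the latent TGF-beta binding proteins. It was at 0.323, 0.429 and 0.632 FPKM in STZ hearts, against 0.435, 7.82 and 0.795 FPKM in control hearts. Control 2 was 18.0 times the median of the others, from 1369 reads against 47 to 114, and the other 5 libraries overlapped between the groups. Cilp (ENSMUSG00000042254, chromosome 9, 65265180 to 65280605, plus strand) encodes a cartilage matrix protein that is also made by fibroblasts of the injured mouse heart. It was at 0.132, 0.028 and 0.342 FPKM in STZ hearts, against 0.028, 0.935 and 0.215 FPKM in control hearts. STZ 2 and control 1 rest on 2 reads each, and a level of 2 reads has a 95% Poisson interval of 0.242 to 7.22 reads.

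Thbs1 (ENSMUSG00000040152, chromosome 2, 118111876 to 118127133, plus strand) encodes a trimeric thrombospondin that can release TGF-beta from its latent form. It was at 7.498, 9.81 and 6.64 FPKM in STZ hearts, against 6.14, 14.1 and 8.47 FPKM in control hearts. The groups overlapped (log2 fold change -0.18, SE 0.280; limma, adjusted p = 0.924), and without control 2 the sign turned, to 0.11.

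Thbs4 (ENSMUSG00000021702, chromosome 13, 92751590 to 92794818, minus strand) and Comp (ENSMUSG00000031849, chromosome 8, 70373558 to 70382066, plus strand) encode pentameric thrombospondins of tendon and cartilage. Thbs4 was at 10.1, 6.82 and 5.06 FPKM in STZ hearts, against 3.21, 8.53 and 4.55 FPKM in control hearts. It was the only one of the 10 genes with its highest value in an STZ heart, and the STZ values lay above controls 1 and 3 but on both sides of control 2. The log2 fold change was 0.42 (95% interval -0.39 to 1.22; limma, adjusted p = 0.922), and without control 2 it was 0.74 (0.11 to 1.37; limma, unadjusted p = 0.0279, adjusted p = 0.9998). Other omissions moved it the other way, to 0.15 without control 1 and 0.18 without STZ 1. Comp was at 0.606, 0.421 and 0.164 FPKM in STZ hearts, against 0.180, 2.66 and 0.135 FPKM in control hearts. Only 7 to 32 reads stand behind Comp outside control 2, which had 169. Of 10 genes of valves, tendon and cartilage, which could share this signal, the summed level was 9.63, 12.3 and 8.0 FPKM in STZ hearts, against 12.9, 35.1 and 10.97 FPKM in control hearts. The single genes of this list did not share an order. The defining tendon gene Tnmd was at 0.125 FPKM in STZ 1 and 0.898 FPKM in control 2, and listed at 0 in the other 4. Those were the libraries where Thbs4 and Comp were highest. Sox9 (3.15 FPKM), Acan (0.866), Mkx (0.072) and Prg4 (0.039) instead had their lowest value in STZ 1. The part of valve, tendon or cartilage tissue in the levels of Thbs4 and Comp was not tested.

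None of the 7 tested genes passed the limma threshold, where 0.0241% of the 12431 genes tested did (3 genes). At an unadjusted p under 0.05 there were 0 of the 7, beside 2.59% of all genes tested, the lowest being 0.103 for Postn, and voom on recovered reads also called 0. Their lowest adjusted p was 0.922 with all libraries, and it stayed between 0.689 and 0.9998 when each library was left out in turn. Of the 7, 5 had a lower mean in STZ hearts (42.3% of all tested genes did), and 3 had without control 2 (50.5% of all tested genes). The median log2 fold change of the 7 was -0.14, beside 0.03 over all genes tested. Counting Ltbp2, Comp and Cilp by their values, 8 of 10 genes had a lower mean in STZ hearts with control 2 and 4 of 10 without it.

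**Figure D3:**
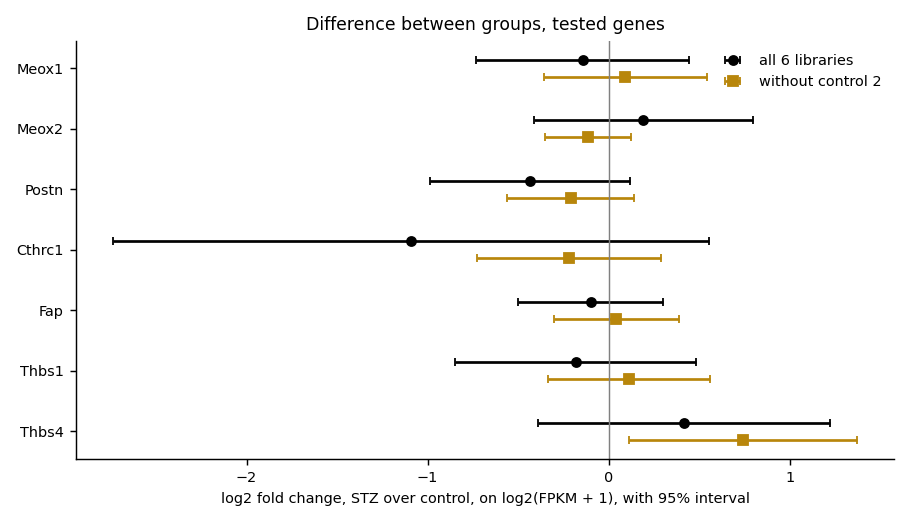
Log2 fold change, STZ over control, of the 7 tested genes (x axis, on log2(FPKM + 1)) with 95% limma intervals, for all 6 libraries (black circles) and without control 2 (ochre squares). All intervals include 0 except that of Thbs4 without control 2 (0.11 to 1.37), and Cthrc1 moves from -1.09 with all libraries to -0.22.

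How the genes followed Meox1 was read from Pearson's r and Spearman's rho on log2(FPKM + 1) over the 6 libraries, with exact permutation tests over 720 pairings, adjusted over the 12430 other genes tested. Of the tested genes here, Fap had the highest r with Meox1 (r = 0.957, exact p = 0.0056, adjusted p = 0.327; rho = 0.886, exact p = 0.033, adjusted p = 0.678). Its r with Meox1 was above that of 99.8% of the genes tested. It kept r = 0.887 without control 2 and 0.918 without controls 1 and 2, the libraries farthest from the Meox1 median. Within the groups, all 6 pairs of libraries were in the same order for Fap as for Meox1. No r passed adjustment over all genes, whose lowest adjusted p was 0.327, while 1602 genes had an unadjusted p under 0.05.

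Cthrc1 had r = 0.819 (exact p = 0.047, adjusted p = 0.376) and rho = 0.829 (exact p = 0.058, adjusted p = 0.679). Its r was 0.423 without control 2 and 0.558 without the farthest libraries. Cthrc1 and Fap were the 2 of the 6 tested genes other than Meox1 with a positive r at an unadjusted p under 0.05, where 4.42% of the genes tested had one. Thbs1 had r = 0.727 (exact p = 0.10, adjusted p = 0.417; rho = 0.600, exact p = 0.24, adjusted p = 0.831) and Postn r = 0.627 (exact p = 0.16, adjusted p = 0.449; rho = 0.486, exact p = 0.36, adjusted p = 0.878). Neither relation held without control 2, where r was 0.213 for Thbs1 and -0.166 for Postn. Thbs4 was the loosest, with r = 0.491 (exact p = 0.32, adjusted p = 0.55; rho = 0.314, exact p = 0.56, adjusted p = 0.951), with 0.291 without control 2 and -0.581 without the farthest libraries. Without the farthest libraries r was -0.641 for Thbs1 and 0.179 for Postn, so the relations of these 3 genes rest on the libraries left out.

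Meox2 ran against Meox1, with r = -0.877 (exact p = 0.015, adjusted p = 0.36) and rho = -0.771 (exact p = 0.10, adjusted p = 0.732). Without control 2 r was -0.741, and without the farthest libraries -0.458. Only 3.44% of the tested genes had a lower r with Meox1. Among the genes under the filter, described without a test, Cilp had r = 0.936 and kept 0.865 without control 2, Ltbp2 had 0.829 and 0.629, and Comp had 0.715 and -0.139. By rho Cilp (0.943) stood above Fap (0.886), and with a pseudocount of 0.1 its r was 0.963 against 0.956 for Fap. Cilp rests on 2 to 27 reads outside control 2, where Fap has 148 to 231, so counting error leaves the order of Cilp over these libraries unsure. Fap and Cilp were thus the genes with r above 0.8 both with and without control 2. Over all genes tested, 42.3% had a positive r with Meox1 with all libraries and 48.4% without control 2.

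**Figure D4:**
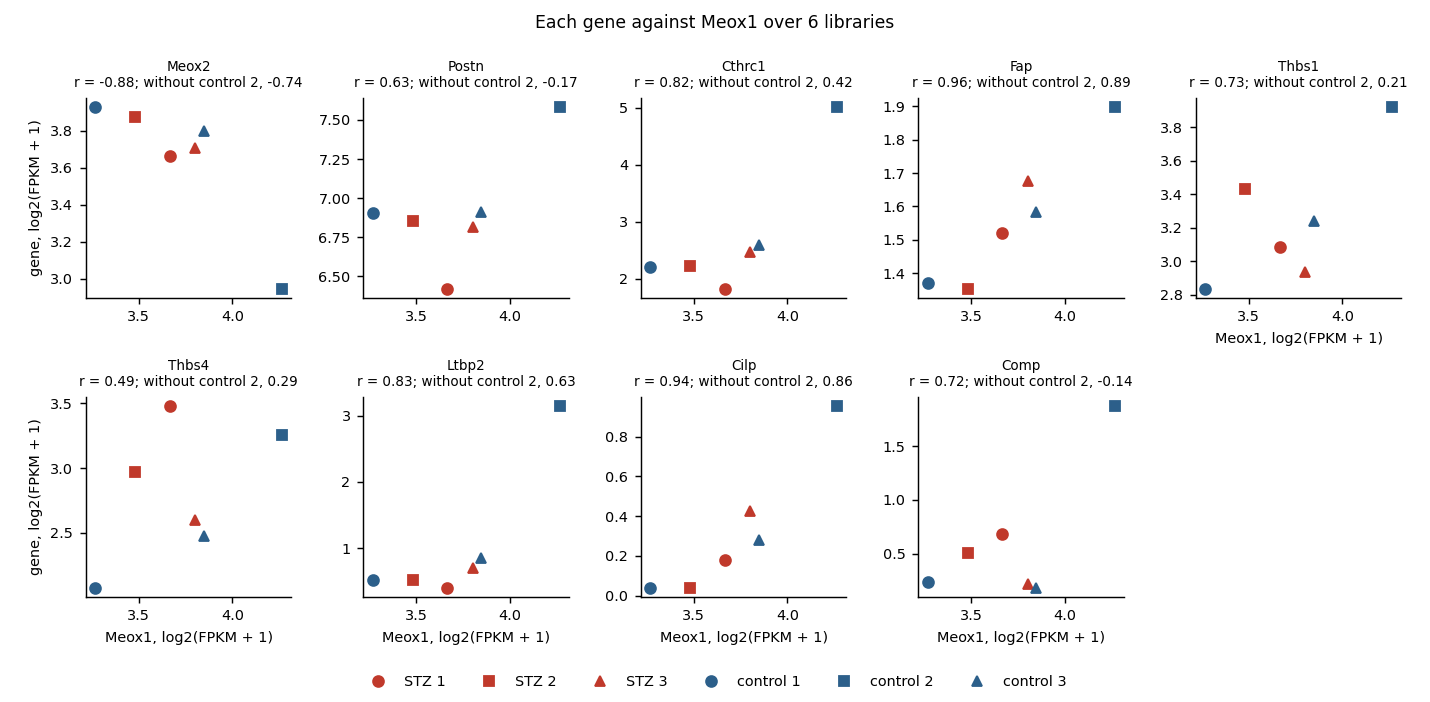
Log2(FPKM + 1) of each gene (y axis) against that of Meox1 (x axis) in the 6 libraries, STZ in red and control in blue, with Pearson's r above each panel. Fap and Cilp are higher where Meox1 is higher (r = 0.957 and 0.936), Meox2 descends (r = -0.877), and in the Comp panel control 2 alone carries the slope.

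Among themselves the genes were compared by r in 45 pairs, a description with no test. The pairs named first had the highest r without control 2. Fap and Cilp had r = 0.97 (0.99 without control 2), with STZ 2 and control 1 lowest and STZ 3 and control 2 highest in both. Cthrc1 and Ltbp2 had r = 0.995 (0.949 without control 2), with STZ 1 lowest and controls 3 and 2 highest in both. Thbs4 and Comp had r = 0.647 (0.903 without control 2), with STZ 1 and control 2 as the highest libraries of both. Of the 45 pairs, 35 had a positive r with all libraries and 26 without control 2.

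Outside the 10 genes, those most like Meox1 among 6725 genes with a mean of at least 5 FPKM were Otud5, a deubiquitinase gene (r = 0.985), Pttg1, the securin of sister chromatids (0.984), the complement gene C3 (0.978), Fam107b (0.969) and Polr3k, an RNA polymerase III subunit (0.969), each over 6 libraries; without control 2 their r was between 0.920 and 0.974. Otud5 spanned 10.4, 10.02 and 10.5 FPKM in STZ hearts, against 9.79, 11.7 and 10.9 FPKM in control hearts, a narrow range that kept the order of Meox1 in every library. C3 was at 12.8, 11.95 and 15.2 FPKM in STZ hearts, against 8.88, 34.8 and 19.7 FPKM in control hearts, also in the order of Meox1. The genes most like Meox2 were Egln1, an oxygen-sensing prolyl hydroxylase (r = 0.999), Rhot1, a GTPase that tethers mitochondria to motors (0.998), the cardiomyocyte gene Trdn, triadin of the sarcoplasmic reticulum (0.997), Stam (0.997) and Sypl (0.997), with r between 0.955 and 0.987 without control 2. Trdn was at 25.6, 30.4 and 26.4 FPKM in STZ hearts, against 30.1, 16.9 and 27.9 FPKM in control hearts. Each of these genes had a lower value in control 2 than in any other library, as Meox2 and 41.7% of all tested genes did. No r of the genes most like Meox1 or Meox2 passed adjustment over all genes. By exact permutation test the adjusted p was 0.327 for each of those most like Meox1 and 0.291 for each of those most like Meox2.

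Each tested gene was also set beside fibroblast markers of its own library, as log2(FPKM + 1) minus the median over 10 resident fibroblast markers. That median was 4.22, 4.29 and 4.34 in STZ hearts, against 4.495, 5.31 and 4.40 in control hearts, so all STZ values lay below all control values. On this scale Meox1 averaged -0.63 ± 0.152 in STZ hearts and -0.94 ± 0.346 in control hearts (SD, n = 3 each; exact two-sided permutation p = 0.2), and Fap -2.77 ± 0.149 and -3.12 ± 0.295 (exact permutation p = 0.2). Without control 2 these differences were 0.26 for Meox1 and 0.21 for Fap. Meox1 in control 2, the highest by FPKM, was at -1.04 on this scale, below all 3 STZ hearts. The denominator was highest in that library (5.31). Its markers disagreed there, from 0.901 (Pdgfra) to 7.41 times (Mfap4) the median of the other libraries, so the low Meox1 value is not a level per fibroblast. The lower denominator of the STZ hearts raises any gene there, so these higher STZ means are no result about Meox1 or Fap. Postn stood above the markers by a like amount in both groups, at 2.41 ± 0.186 in STZ hearts and 2.396 ± 0.118 in control hearts (difference 0.018, and -0.044 without control 2; exact permutation p = 1). Its groups, apart by FPKM, overlapped on this scale. The lower denominator of the STZ hearts raises Postn there too, so neither the like amount nor the overlap is a result about Postn. Cthrc1 remained highest in control 2, at -0.31 against -2.39 to -1.82 in the other libraries. Thbs4 was higher in all 3 STZ hearts (-1.27 ± 0.504) than in all 3 control hearts (-2.14 ± 0.253; exact permutation p = 0.1, the smallest possible), and was the only 1 of the 7 to be so. The Thbs4 difference was 0.87, and 0.91 without control 2. Because the denominator itself differed between the groups, 36.9% of all genes tested had this order, so the Thbs4 order is no result about that gene.

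**Figure D5:**
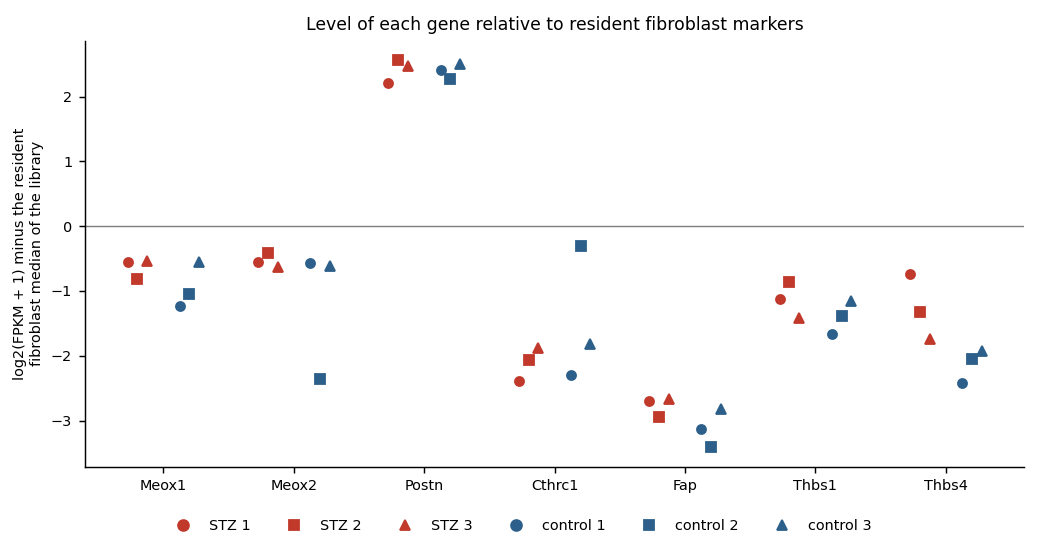
Level of each tested gene as log2(FPKM + 1) minus the median of 10 resident fibroblast markers of the same library (y axis), STZ (red) left of control (blue). Postn lies between 2.20 and 2.56 in all 6 libraries, and Cthrc1 (-0.31) stands out upwards and Meox2 (-2.36) downwards in control 2.

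Lists of other genes were counted beside the 10. Of 20 further activation genes, 16 were tested: 3 had a higher and 13 a lower mean in STZ hearts (median of their log2 fold changes -0.29), and 0 passed the limma threshold (1 had an unadjusted p under 0.05, beside 2.59% of all genes tested). Without control 2, 11 of 14 tested were lower, with a median of -0.049. The lowest unadjusted p belonged to Col8a1, a short-chain collagen, at 0.804 ± 0.058 FPKM in STZ hearts and 1.66 ± 0.516 FPKM in control hearts (log2 fold change -0.54; limma, adjusted p = 0.922; under the filter without control 2), and to Fn1, fibronectin, at 68.7 ± 1.11 and 89.4 ± 17.1 FPKM (-0.36, adjusted p = 0.922; -0.22 without control 2). Of 10 resident fibroblast markers, 10 had a lower mean in STZ hearts (median -0.32) and 9 without control 2 (median -0.12). The fibrillar collagens had a lower mean in 5 of 5 tested genes, with a median of -0.47, and of -0.15 without control 2. Those of lowest p were Col1a1 (190 ± 7.29 FPKM in STZ and 265 ± 91.4 FPKM in control hearts) and Col3a1 (254 ± 3.82 and 370 ± 151 FPKM), with log2 fold changes of -0.42 and -0.47, and of -0.16 each without control 2. With Meox1, 13 of the 16 activation genes and 5 of 5 collagens had a positive r, at medians of 0.658 and 0.842, beside a median of -0.199 over all genes; without control 2, 10 activation genes and 4 collagens had one, and these medians were 0.361, 0.565 and -0.026. Markers of some other cell types went with Meox1 too. Epicardial markers had a positive r in 7 of 8 tested genes (median 0.783) and in 8 without control 2 (median 0.447). Macrophage markers had one in 6 of 6 (0.752) and in 4 without control 2 (0.173), and atrial genes in 4 of 4 (0.794) and in 3 without control 2 (0.306). Resident fibroblast markers had a positive r in 9 of 10 (median 0.597), but in 4 without control 2 (median -0.032). Erythroid genes went from 4 of 4 (0.559) to 0 (-0.405). Cardiomyocyte (0 of 8, median -0.785), endothelial (1 of 6, -0.421) and smooth muscle and pericyte markers (2 of 8, -0.627) mostly ran against Meox1. Without control 2 these lists had a positive r in 2, 5 and 2 genes. The part of these cell types in the relations of the 10 genes with Meox1 was not tested.

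Of 7 paralogues tested (Thbs2, Thbs3, Ltbp1, Ltbp3, Ltbp4, Tgfbi and Dpp4), 7 had a lower mean in STZ hearts (median of their log2 fold changes -0.39), and 0 passed the limma threshold or had an unadjusted p under 0.05 (2.59% of all genes did). Without control 2, 6 of 7 had a lower mean, with a median of -0.088. With Meox1, 7 of 7 had a positive r (median 0.606), but only 1 had one without control 2 (median -0.235). Tgfbi, the closest relative of periostin, was at 3.75 ± 0.594 FPKM in STZ hearts and 7.17 ± 3.96 FPKM in control hearts (log2 fold change -0.69, SE 0.309; limma, adjusted p = 0.922; -0.32 without control 2). Thbs2 was at 19.7 ± 1.91 FPKM in STZ hearts and 26.8 ± 7.90 FPKM in control hearts (-0.39; -0.18 without control 2). Thbs3 averaged 4.72 FPKM in STZ hearts and 7.18 FPKM in control hearts, and Ltbp1 averaged 7.43 and 8.51 FPKM. Ltbp3 was at 13.9 ± 0.217 FPKM in STZ hearts and 21.8 ± 12.1 FPKM in control hearts, with control 2 at 2.54 times the median of the others, whereas Ltbp4, the most abundant of its family, was at 84.7 ± 4.03 and 93.0 ± 9.50 FPKM with control 2 at 1.22 times. Dpp4, the protease most like Fap, was at 2.69 ± 0.178 FPKM in STZ hearts and 3.16 ± 0.389 FPKM in control hearts. Without control 2 the log2 fold changes were -0.082 for Thbs3, 0.020 for Ltbp1, -0.088 for Ltbp3, -0.053 for Ltbp4 and -0.097 for Dpp4. Cilp2 was under the filter, at 1.68 FPKM in control 2 and at most 0.375 FPKM elsewhere.

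Genes upstream of or beside Meox1 and Meox2 came from 3 more lists. Of 15 TGF-beta genes tested (ligands, receptors, SMADs and regulators), 9 had a higher and 6 a lower mean in STZ hearts (median 0.0033 on the log2 scale, and 0.0061 without control 2). The ligand Tgfb2 was at 4.87 ± 0.214 FPKM in STZ hearts and 6.90 ± 2.54 FPKM in control hearts (-0.38; limma, adjusted p = 0.922; -0.13 without control 2), and the integrin chain Itgav at 5.32 ± 0.511 and 6.27 ± 0.995 FPKM (-0.20; -0.11 without control 2). Of 3 genes known as MEOX targets, only Cdkn1a, the cell cycle inhibitor p21, was tested, at 10.1 ± 0.363 FPKM in STZ hearts and 8.60 ± 1.05 FPKM in control hearts (0.22; limma, adjusted p = 0.922; 0.155 without control 2), while Nkx3-2 was listed at 0 in all 6 libraries. Of 5 capillary genes that accompany Meox2, 3 had a higher and 2 a lower mean in STZ hearts (median 0.13, and -0.045 without control 2). Tcf15 was at 21.8 ± 0.323 FPKM in STZ hearts and 19.98 ± 2.65 FPKM in control hearts, and Fabp4 at 77.7 ± 6.19 and 94.6 ± 25.8 FPKM, with log2 fold changes of 0.13 and -0.25, and of 0.021 and -0.045 without control 2. No gene of these 3 lists passed the limma threshold or had an unadjusted p under 0.05, beside 2.59% of all genes tested.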

How the data were processed

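The deposited table holds 1 FPKM column for each of 6 libraries. Per the labels' protocols, a SMARTER kit was used on column-purified RNA. The submitters' processing notes name the build GRCm38 (mm10). Aligner, counter and strand setting: not given in the sources used here. That the authors' values are FPKM was read from the table's abbreviation and its values: times gene length, 100% of those above 0 were whole multiples of 1 step per library (tolerance 0.01 reads), which gave the recovered reads. Groups came from the treatment labels and replicate numbers from the titles.

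The 12431 genes that reached 1 FPKM in 3 or more libraries were fitted with limma 3.58.1 (R 4.3.3, mean-variance trend) on log2(FPKM + 1), which understates differences of low genes. Tests were two-sided, with Benjamini-Hochberg (BH) adjustment over all genes tested and a threshold of 0.05. Single genes had exact permutation tests over 20 assignments. The fit was also run on simulated counts with 1 dispersion for all genes and no library set apart. Control 2 differs from that setting, so the simulation does not show how the fit behaves on these data. No 2 libraries of a group agreed within sampling noise (chi-square per degree of freedom at least 11.8). The genes, lists and naming rule (all 10 genes, their paralogues, the 2 genes of lowest p in each pathway list and the 5 most like Meox1 or Meox2) were chosen with earlier results of these data known. Intervals on reads cover counting error only. Figures used matplotlib 3.10.9. One list of the naming rule is not reported here.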

Additional observations from a re-analysis of the deposited data

How the results depend on the processing

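None of the 7 tested genes passed the limma threshold under any of the 13 alternatives in which it was fitted (Fap was under the limit at a mean of at least 5 FPKM), with lowest adjusted p-values from 0.689 to 0.9998. Over all genes, 2 were called higher in STZ hearts and 1 lower. With the same-numbered hearts as a replicate block, 0 were called higher and 0 lower; same-numbered hearts did not deviate together (r of 0.021, -0.041 and 0.092), so the numbers were not taken as pairs. The count called higher was 1 with a pseudocount of 0.1, 1 with no filter, 1 at a mean of at least 5 FPKM and 1 with voom on recovered reads, which called 0 lower. Leaving out 1 library at a time gave 1 to 2 higher and 1 to 3 lower. Leaving out 1 library at a time also gave log2 fold changes of -0.41 to 0.091 for Meox1, -0.11 to 0.38 for Meox2, -0.22 to 0.041 for Fap, -0.43 to 0.11 for Thbs1 and 0.15 to 0.74 for Thbs4, and r with Meox1 of -0.17 to 0.813 for Postn and -0.14 to 0.835 for Comp. In each case but Thbs4 the sign turned without control 2; the cause was not tested. Without controls 1 and 2, r with Meox1 was -0.64 for Thbs1, -0.58 for Thbs4 and -0.71 for Comp, and 5 of 9 genes had a positive r, against 8 with all libraries. Relative to fibroblasts, Postn differed by -0.035 against fibrillar collagens and by -0.057 to 0.122 with 1 library left out, Ltbp2 by -0.88 to 0.026 with 1 library left out, and Cilp by -0.085 with a pseudocount of 0.1. The median log2 difference of all genes was 0.031 as deposited, 0.0034 with median-of-ratios scaling and -0.025 with recovered read totals. Depth limits Cilp and Comp, which rest on 2 to 32 reads outside control 2.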

Other observations

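Among the further activation genes, 3 were picked after their values were seen. Lox, which cross-links collagen, was at 10.2, 11.5 and 12.3 FPKM in STZ hearts, against 12.3, 51.1 and 16.9 FPKM in control hearts. Tnc, tenascin C, was at 5.07, 5.34 and 5.85 FPKM in STZ hearts, against 4.38, 25.4 and 7.21 FPKM in control hearts. Both were at more than 4 times the median of the other libraries in control 2, as Cthrc1 and Ltbp2 were. Acta2, the smooth muscle actin of contractile fibroblasts and of vessel walls, did not share this: it was at 252, 377 and 538 FPKM in STZ hearts, against 488, 323 and 354 FPKM in control hearts, and control 2 was at 0.856 times the median of the others.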
